A study of Mus musculus with 4 samples.

Results

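Apoe and 5 further genes of lipid transport in the brain (Clu, Abca1, Lrp1, Lpl and Trem2) were followed through single-cell transcriptomes of the mouse ventromedial prefrontal cortex. They are 6 of 31053 genes in the count matrices. They were selected on their measured levels by cell class and in sorted against unsorted neurons, so those levels are described here without a test. All cells came from male C57BL/6 mice injected at 8 weeks of age with 5 retrograde adeno-associated viruses, each carrying EGFP and a barcode, into 5 targets of this cortex (agranular insula, dorsomedial striatum, mediodorsal thalamus, basolateral amygdala and lateral hypothalamus). No uninjected mice were among the samples. The unsorted group held 3 libraries of prelimbic and infralimbic cells, 1 mouse each. The sorted group held 1 library of EGFP-positive cells pooled from 3 mice, so a sorted value has no replicate and its error is a 95% Poisson interval that covers counting error only.

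The libraries held 2075 to 8040 cell barcodes and 54749198 to 87841541 unique molecular identifiers (UMIs, 1 per captured transcript), and 1791 to 7012 cells passed the filter. Between 18 and 62 cell barcodes of a library also occurred in another. Excitatory neurons and their 7 subtypes were those of the deposited metadata (9368 neurons, median 21362 to 31670 UMIs per library). The samples are labelled as retrograde labelled neurons, but 11895 cells that passed the filter lay outside that metadata. These were given to 9 further classes by the UMIs of limit genes, for example Aqp4 + Gja1 of 3 or more for astrocytes, Cx3cr1 + P2ry12 of 4 or more for microglia, Kcnj8 + Abcc9 of 3 or more for pericytes and Mrc1 + Pf4 of 4 or more for macrophages. Cells that met 2 or more limits (750) or none (852) were left out. Unsorted libraries held 465 astrocytes, 2876 microglia, 325 pericytes, 1794 oligodendrocytes, 1721 oligodendrocyte precursors, 1654 endothelial cells, 88 smooth muscle cells, 60 macrophages and 1232 inhibitory neurons. Every marker not used for a limit was highest in its own class in 8 of these 9 classes, and in the inhibitory neurons 4 of 5 were. Cells at a limit and cells 1 UMI below it were few for astrocytes and microglia, but not for pericytes (56 and 54 cells). The 19 astrocytes with 3 limit UMIs had an Apoe level of 6134 CPM (counts per 1000000 UMIs of the class). In 11 unclassed cells with 2 it was 14818.2. The 28 microglia with 4 limit UMIs had 919 Trem2 CPM, and 34 unclassed cells with 3 had 2268. Pericytes at their limit had 282 Apoe and 49.8 Trem2 CPM, and the cells 1 UMI below it had 172 and 17.2.

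Lipids move between brain cells on lipoprotein particles that are built mainly by glia. Apoe and Clu (apolipoprotein J) are the main apolipoproteins of these particles, and Abca1 is the transporter that loads them with cholesterol and phospholipid. Lrp1 is an endocytic receptor for Apoe-bearing particles, Lpl is a lipase that releases fatty acids from triglyceride, and Trem2 is a receptor of microglia that binds lipids and apolipoproteins.

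Apoe lies on chromosome 7 (GRCm38, 19696109-19699188, minus strand) and no annotated gene overlaps it. CPM is taken over all UMIs of a class in a library, and means are over the unsorted libraries with their SD. Apoe was highest in macrophages, at 57636.7, 53044.6 and 56012.8 CPM in the 3 unsorted libraries (55564.7 ± 2329, n = 3). Astrocytes followed at 13788.7, 12702.2 and 13279.5 CPM (13256.8 ± 544). Oligodendrocyte precursors, the dividing progenitors of myelinating cells, held 7068, 6909 and 6880 CPM. Oligodendrocytes held 2773, 2741 and 3037 CPM. From macrophages down to pericytes no 2 neighbouring classes overlapped between libraries. The steps were 4.19-fold from macrophages to astrocytes, 1.91-fold to the precursors, 2.44-fold to oligodendrocytes and 3.79-fold to endothelial cells (751 ± 24.5 CPM).

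Because the classes differ in number, the order of levels is not the order of Apoe molecules captured. Oligodendrocyte precursors held 41.8 ± 2.38% (SD, n = 3) of all Apoe UMIs in classed unsorted cells, oligodendrocytes 21.4 ± 0.269%, astrocytes 17.6 ± 1.89% and macrophages 10.4 ± 1.34%. Macrophages made up 0.332% of those cells and astrocytes 2.60%. The astrocyte list of 8 markers summed to 16867 to 19744.9 CPM in astrocytes and to 1317 to 1358 CPM in the precursors, where Apoe stood at 6880 to 7068 CPM, and to 256 to 265 CPM in oligodendrocytes. All 5 macrophage markers were at 0 in the precursors. The part of captured glial RNA in these levels was not tested.

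**Figure D1:**
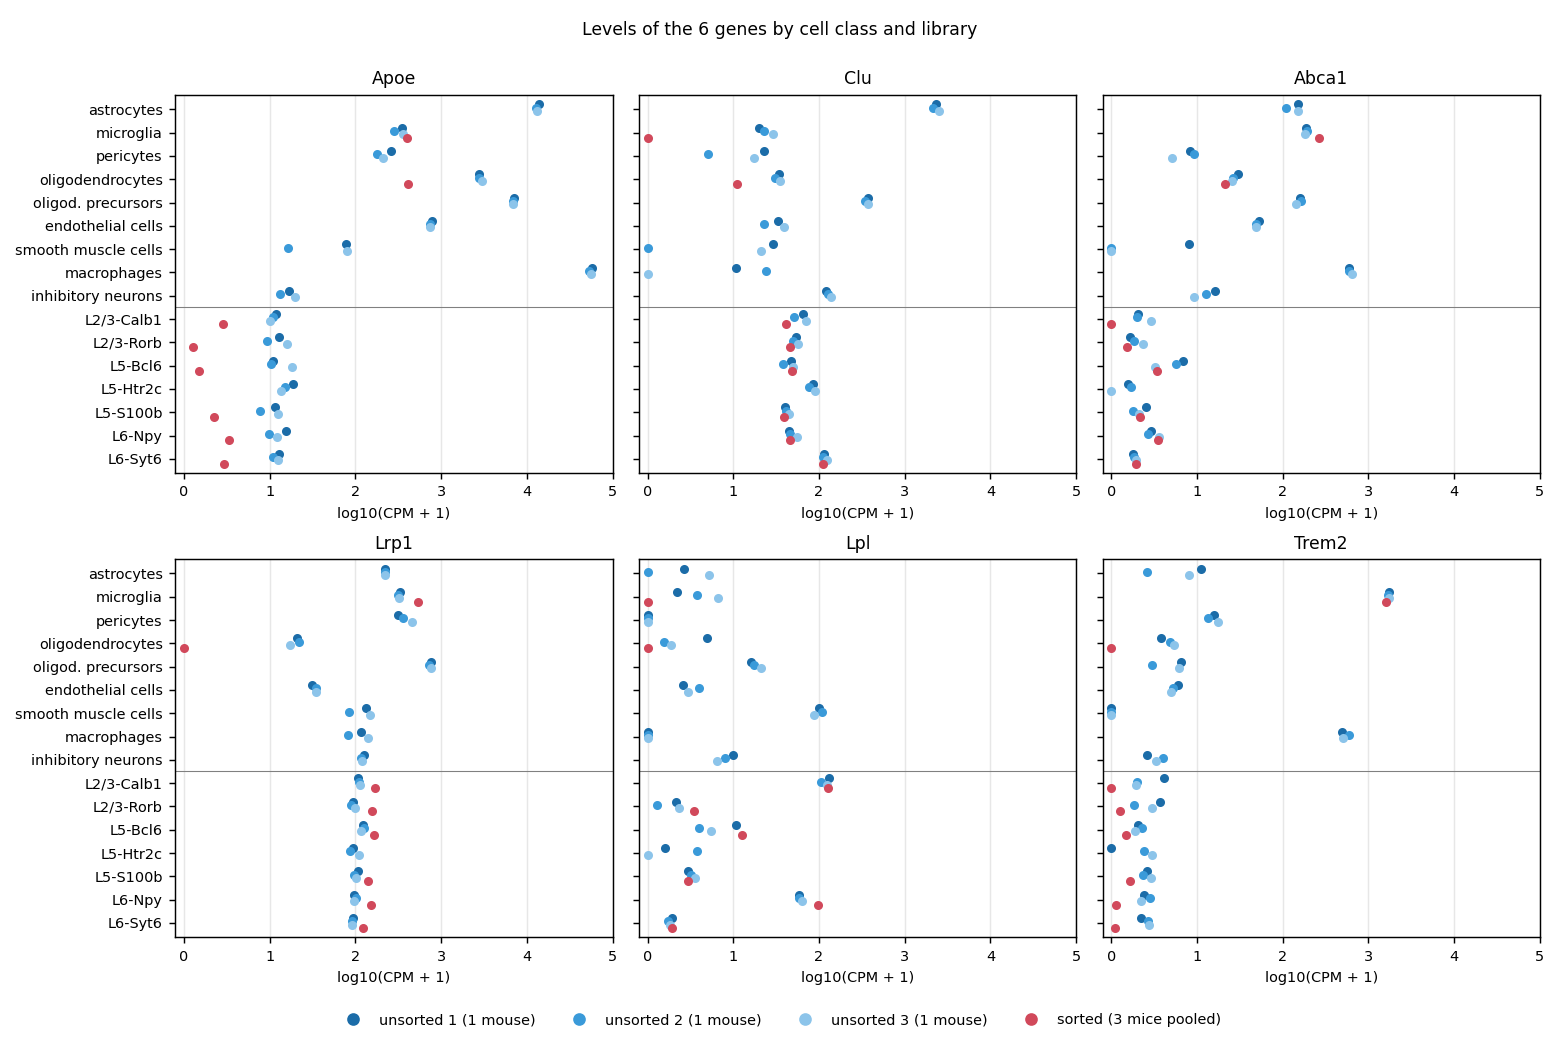
Each point is the level of 1 library in 1 cell class on a log10(CPM + 1) axis, with 1 panel per gene, blue for the 3 unsorted libraries and red for the sorted library (classes under 10 cells in a library are not drawn). Apoe spans from about 10 CPM in unsorted neurons to 55564.7 CPM in macrophages, Trem2 is high in microglia and macrophages alone, and Clu, Lrp1 and Lpl reach neurons.

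Microglia held less Apoe than the classes above, at 345, 281 and 354 CPM (327 ± 39.8), and were uneven from cell to cell. The median microglial cell had 0 Apoe UMIs in each unsorted library, and the 95th percentile was 9, 7 and 8 UMIs. Cells with 10 or more Apoe UMIs were 4.45%, 2.88% and 3.64% of microglia and carried 52.5%, 33.8% and 43.0% of the microglial Apoe UMIs. These cells had medians of 5266, 5217 and 5506 UMIs in all, against 4235, 4182 and 4406 in the other microglia. Trem2 stood at 1947, 1670 and 1838 CPM in them, against 1709, 1718 and 1730 CPM in the others, so higher in 2 of 3 libraries. Pf4 or Mrc1, the macrophage limit genes, were seen in 2.17%, 0% and 6.06% of them and in 1.94% to 2.42% of the others. Aqp4 or Gja1 were seen in 2.17%, 0% and 9.09% of them and in 0.990% to 1.82% of the others.

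Pericytes had 256, 177 and 210 Apoe CPM, below every microglial value, from 164 UMIs in all. UMIs per cell are given beside CPM, because free RNA may add UMIs to a droplet whatever the total of its cell. The amount of free RNA per droplet was not measured. Smooth muscle cells had 0.287 Apoe UMIs per cell, inhibitory neurons 0.235 and the 7 excitatory subtypes 0.189 to 0.297. Pericytes stood at 0.500 UMIs per cell, microglia at 1.65, endothelial cells at 3.40, oligodendrocytes at 17.2, the precursors at 35.1, astrocytes at 54.6 and macrophages at 252. With every cell thinned to 2000 UMIs, 2.01% of excitatory neurons had an Apoe UMI, against 28.9% of microglia, 30.2% of pericytes, 73.2% of endothelial cells and 97.5% or more of the precursors, astrocytes and macrophages. Thinning left out 87 pericytes and 320 endothelial cells with fewer UMIs, and the shares before thinning were 19.3%, 41.4%, 30.5% and 82.5% for neurons, microglia, pericytes and endothelial cells.

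**Figure D2:**
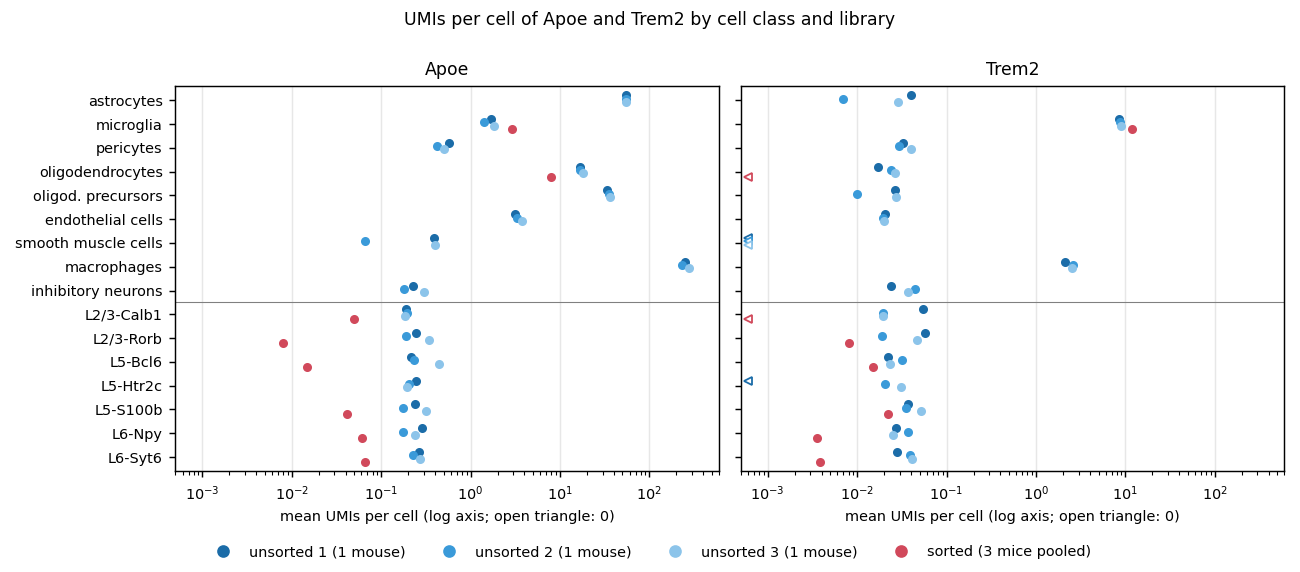
Mean UMIs per cell of Apoe and Trem2 in each class and library, on a log axis, with blue for the 3 unsorted libraries, red for the sorted library and an open triangle for 0. Apoe has means of 0.189 to 0.297 UMIs per cell in the unsorted excitatory subtypes and lies lower in sorted neurons, and Trem2 sits near 8.70 UMIs per cell in microglia and under 0.1 in all classes but microglia and macrophages.

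The promoter of Apoe is shown here because Apoe and Abca1 followed each other over the cell classes, and that of Trem2 because its pattern was narrower. RefSeq promoters (GRCm38.p6, 250 bases before to 50 after the start site) were found for 4 of the 6 genes, and the 3 shown begin at the annotated gene starts. Capitals mark matches, on either strand, to 5 motifs: the TATA box (TATAAA), the GC box (GGGCGG), the CCAAT box (CCAAT), the PU box core bound by the myeloid factor PU.1 (GAGGAA) and a loose form of the repeat bound by the sterol receptor LXR (TGACCNNNNNTAACC).
Apoe promoter, chr7:19699139-19699438, minus strand: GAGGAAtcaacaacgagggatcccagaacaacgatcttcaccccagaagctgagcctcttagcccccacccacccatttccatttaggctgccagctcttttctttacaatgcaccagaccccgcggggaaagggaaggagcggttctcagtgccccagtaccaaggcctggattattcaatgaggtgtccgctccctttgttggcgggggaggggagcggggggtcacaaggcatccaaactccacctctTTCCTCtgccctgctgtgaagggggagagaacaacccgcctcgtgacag
Abca1 promoter, chr4:53159846-53160145, minus strand: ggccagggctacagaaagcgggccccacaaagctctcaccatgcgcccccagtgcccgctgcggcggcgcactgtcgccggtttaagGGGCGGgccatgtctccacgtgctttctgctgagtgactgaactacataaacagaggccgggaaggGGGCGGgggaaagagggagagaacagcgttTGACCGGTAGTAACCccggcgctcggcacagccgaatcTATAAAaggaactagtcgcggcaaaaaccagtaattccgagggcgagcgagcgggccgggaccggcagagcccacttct
Trem2 promoter, chr17:48346151-48346450, plus strand: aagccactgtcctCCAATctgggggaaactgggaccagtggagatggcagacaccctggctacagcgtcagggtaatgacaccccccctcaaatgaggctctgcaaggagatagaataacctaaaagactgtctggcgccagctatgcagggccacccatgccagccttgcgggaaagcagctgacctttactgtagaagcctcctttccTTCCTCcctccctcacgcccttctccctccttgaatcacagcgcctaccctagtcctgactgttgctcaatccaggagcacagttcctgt
Apoe had 3 RefSeq promoter entries, and only that at the annotated gene start is shown and described. This Apoe window holds the PU box letters at its first base and, in the opposite orientation, at the second base of the transcript. It holds none of the other motifs. The Abca1 window holds 2 GC boxes, a TATA box 29 bases before the start and the LXR repeat 67 bases before it. The Trem2 window holds a CCAAT box and the PU box letters in the opposite orientation 40 bases before the start. Among 32851 RefSeq promoters of this length 28.3% hold the PU box letters, 35.7% the GC box, 37.4% the CCAAT box, 13.6% the TATA box and 0.0487% (16 promoters) the LXR repeat. No motif overlapped another, and a match describes the letters only.

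Trem2 (chromosome 17, 48346401-48354147, plus strand) was the most restricted of the 6 genes. Microglia had 1721, 1716 and 1735 CPM (1724 ± 9.77, n = 3), and 97.7 ± 0.101% of its UMIs in classed unsorted cells lay in microglia. Macrophages had 495, 593 and 508 CPM, 3.24-fold lower than microglia and 36.7-fold higher than the next class, pericytes, which held 11 Trem2 UMIs in all (14.5 CPM, and 35.0 CPM with cells that met several limits kept). The remaining classes stood between 0 and 6.27 CPM and overlapped between libraries at nearly every step. Smooth muscle cells had 0 Trem2 UMIs in 3 of 3 libraries, which allows up to 20.9, 22.7 and 19.9 CPM there (3 counts of each total). With cells thinned to 2000 UMIs, 94.2% of microglia and 62.3% of macrophages had a Trem2 UMI, against 0.314% of excitatory neurons. In the sorted library 57 cells passed the microglial limit, and their Trem2 level was 1624 CPM (1503 to 1751), below the unsorted values.

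Abca1 (chromosome 4, 53030787-53159895, minus strand) was highest in the same myeloid cells that lead for Apoe or Trem2. Macrophages had 592, 593 and 648 CPM (611 ± 31.9, n = 3) from 164 UMIs, 3.28-fold above microglia at 187, 189 and 183 CPM. Oligodendrocyte precursors (154 ± 9.58 CPM) and astrocytes (136 ± 23.5 CPM) overlapped between libraries. Endothelial cells had 49.5 ± 2.33 CPM and oligodendrocytes 26.2 ± 2.39 CPM. Pericytes had 5 UMIs in all. Inhibitory neurons had 11.8 ± 3.58 CPM, and excitatory subtypes had 0.427 to 4.25 CPM from 2 to 85 UMIs each. Because microglia are many, 48.7 ± 0.681% of Abca1 UMIs in classed unsorted cells were microglial and 24.1 ± 2.09% came from the precursors.

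Lrp1 (chromosome 10, 127538161-127621148, minus strand) was present in nearly all classes. Gm16217 overlaps it on the other strand, and Cell Ranger counts reads of the gene's own strand. Oligodendrocyte precursors had 762, 730 and 759 CPM (750 ± 17.9, n = 3), 1.99-fold above pericytes at 315, 362 and 453 CPM (mean 377 CPM, and 210.1 CPM with cells that met several limits kept). Pericytes overlapped with microglia at 328, 312 and 322 CPM. Astrocytes had 222, 219 and 220 CPM. Below them, smooth muscle cells, inhibitory neurons, macrophages and all 7 excitatory subtypes lay between 91.4 and 120.5 CPM, with overlapping libraries at most steps. Endothelial cells (32.4 ± 2.07 CPM) and oligodendrocytes (18.9 ± 2.48 CPM) were lowest, without overlap, so the oligodendrocyte lineage held both ends of the order. Excitatory neurons held 53.4 ± 0.724% of Lrp1 UMIs in classed unsorted cells and the precursors 20.8 ± 0.912%.

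Clu (chromosome 14, 65968483-65981547, plus strand) had its highest level in astrocytes, while neurons carried most of its UMIs. Excitatory neurons held 58.3 ± 1.03% of Clu UMIs in classed unsorted cells, astrocytes 17.0 ± 1.63% and inhibitory neurons 9.07 ± 0.691%. Astrocytes had 2307, 2143 and 2507 CPM (2319 ± 182, n = 3), 6.42-fold above oligodendrocyte precursors at 370, 345 and 369 CPM. Next came neurons and not the remaining glia. Inhibitory neurons had 119, 126 and 139 CPM, and L6-Syt6 neurons had 114, 110 and 123 CPM, overlapping with them. L5-Htr2c neurons had 83.8, 76.0 and 89.4 CPM, without overlap on either side. The other 5 excitatory subtypes lay between 40.9 and 61.5 CPM, down to L5-S100b at 38.6, 40.4 and 43.6 CPM. Oligodendrocytes (32.2 ± 2.45 CPM) and microglia (23.0 ± 4.72 CPM) lay below every neuron subtype, while endothelial cells (30.6 ± 8.27 CPM) overlapped with L5-Bcl6. Macrophages had 3 Clu UMIs in all, while their Apoe level was the highest of the 16 classes.

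Lpl (chromosome 8, 68880491-68907448, plus strand) was seen in few classes. L2/3-Calb1 neurons had 131, 104 and 121 CPM (119 ± 13.7, n = 3). Smooth muscle cells overlapped with them at 97.6, 106 and 86.3 CPM from 41 UMIs (mean 96.6 CPM, and 51.1 CPM with cells that met several limits kept). L6-Npy neurons had 57.0, 57.0 and 63.0 CPM. Oligodendrocyte precursors had 17.3 ± 2.49 CPM, and every other class had a mean under 8 CPM. Between L2/3-Calb1 and L2/3-Rorb, both of the upper layers, the means stood at 119 and 0.913 CPM, and between L6-Npy and L6-Syt6 they stood at 59.0 and 0.839 CPM. Pericytes and macrophages had 0 Lpl UMIs in every unsorted library, which allows up to 11.0 to 12.4 CPM in pericytes and up to 29.1 to 38.1 CPM in macrophages. The neuron clusters were made from these same cells, so the subtype differences of Clu, Lpl and Lrp1 are a description.

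**Figure D3:**
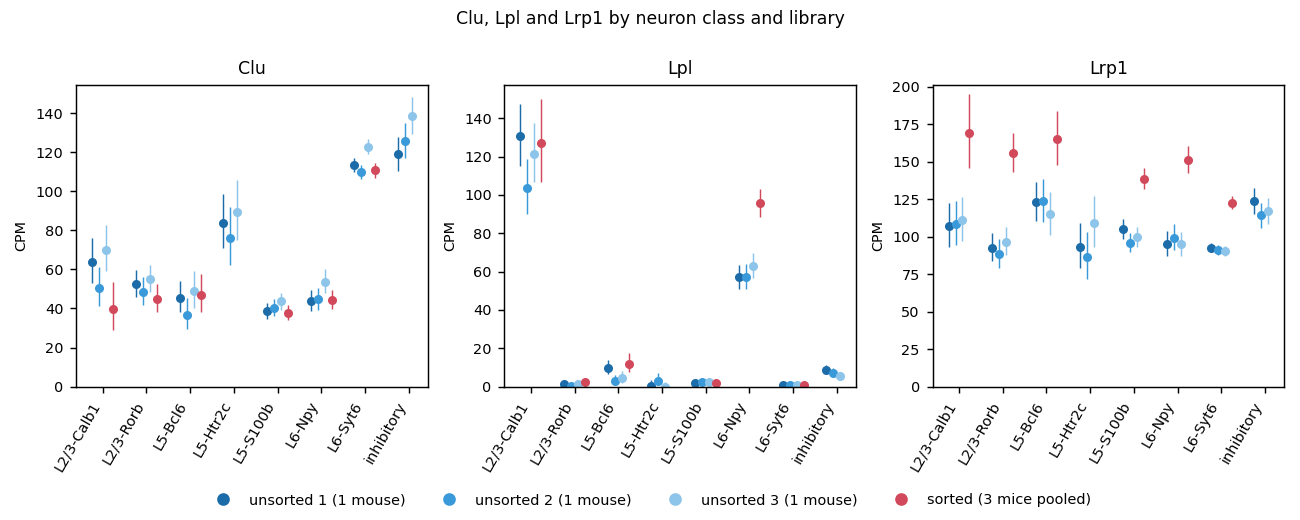
Levels of Clu, Lpl and Lrp1 (CPM, linear axes from 0) in the 7 excitatory subtypes and in inhibitory neurons, 1 point per library with its 95% Poisson interval, blue for unsorted and red for sorted (groups under 10 cells are not drawn). Clu is highest in L6-Syt6 and inhibitory neurons, Lpl in L2/3-Calb1 and L6-Npy, and the sorted library lies above all unsorted libraries for Lrp1 in each subtype drawn.

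Sorted and unsorted neurons were set side by side as a description of the low glial signal in neurons, which free RNA can add to. In excitatory neurons Apoe had 11.9, 9.31 and 11.9 CPM in the unsorted libraries and 1.65 CPM (1.32 to 2.04, 85 UMIs) in the sorted library. Sorted neurons thus kept 15.0% (12.0 to 18.6%) of the unsorted level. Trem2 had 1.43, 1.54 and 1.67 CPM and 0.253 CPM (0.135 to 0.433, 13 UMIs), or 16.4% of the unsorted level. Both sorted values lay below all unsorted ones, with log2 ratios of -2.73 and -2.61. Of 12917 genes with a mean of at least 1 CPM, 6.05% lay below every unsorted library with a log2 ratio to the unsorted mean of -0.5 or lower. The members were chosen with this pattern known, and nothing is read from their count. By subtype, sorted Apoe was 17.1% of the unsorted mean in L6-Syt6 neurons (51 UMIs), 20.6% in L6-Npy (17 UMIs) and 13.1% in L5-S100b (13 UMIs), below all 3 unsorted libraries in each. L2/3-Calb1, L2/3-Rorb and L5-Bcl6 had 2, 1 and 1 sorted Apoe UMIs, under the floor of 3.

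Marker genes of glia differed widely in how much of their level sorted neurons kept, and some exceeded the unsorted level. Of the 10 microglial genes listed, the sorted neurons kept 0 to 68.9% of the unsorted level, with a median of 9.33%, and C1qa, C1qb and C1qc kept 5.79%, 9.13% and 7.43%. Of 9 astrocyte genes at least 20 times higher in CPM in astrocytes than in neurons, sorted neurons kept 0 to 116%, with a median of 69.2%. The glutamate transporter gene Slc1a3 kept 17.0% and Gja1 had 1 UMI in sorted neurons against 79 in unsorted ones, whereas Ntsr2 and Slc4a4 kept 116%. The 8 markers of oligodendrocyte precursors, the class with most Apoe UMIs, kept 2.84% to 126% (median 44.6%), and the 8 of oligodendrocytes 0 to 114% (median 32.4%). In unsorted neurons Apoe stood at 0.456% of its astrocyte level in UMIs per cell, beside 0.136% to 73.5% for the 10 astrocyte genes (median 1.90%). Of these, 5 lay below Apoe (Gja1, Aqp4, Gjb6, Slc1a3 and Mfge8, at 0.136% to 0.343%) and 5 above it (Ntsr2, Aldoc, Aldh1l1, Slc4a4 and Slc1a2, at 3.46% to 73.5%). Trem2 stood at 0.403% of its microglial level, beside 0.252% to 1.16% for the 10 microglial genes (median 0.302%). These marker genes were named after their values had been seen.

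The other 4 members kept most of the unsorted level or exceeded it. Clu had 77.7 CPM (75.3 to 80.2) in sorted neurons against 86.8 ± 5.35 CPM, or 89.6% of the unsorted level and below all 3 libraries. By subtype, sorted Clu lay below all 3 libraries in L2/3-Calb1 (64.9%, 47.2 to 87.1%, 44 UMIs), L2/3-Rorb (86.2%) and L5-S100b (92.6%), and inside their range in L6-Syt6 (95.8%), L6-Npy (93.6%) and L5-Bcl6 (108%). Per cell, unsorted neurons held 20.6% of the Clu UMIs of an astrocyte. Abca1 had 1.21 CPM (0.925 to 1.55, 62 UMIs) against 1.18 ± 0.0996 CPM, inside the unsorted range. Its log2 ratio was 0.03, and -0.48 with neurons thinned to 10000 UMIs. Lrp1 had 135 CPM (132 to 138) against 95.3 ± 1.31 CPM, 1.42-fold higher. In the 6 subtypes with 10 or more sorted neurons the sorted Lrp1 level lay above all 3 unsorted libraries, at 134% to 168% of their mean. Lpl had 17.7 CPM (16.6 to 18.9) against 11.0 ± 0.801 CPM, 1.61-fold higher. By subtype sorted Lpl lay above all 3 libraries in L6-Npy (162% of the unsorted level), L2/3-Rorb (268.5%, 9 UMIs) and L5-Bcl6 (207%, 24 UMIs). It lay inside their range in L2/3-Calb1 (107%) and L6-Syt6 (111%), and below all 3 in L5-S100b (86.4%, 20 UMIs). Of the 12917 genes, 10.5% lay above every unsorted library with a log2 ratio to the unsorted mean of 0.5 or higher. Sorted neurons differed from unsorted ones in mice, sort, depth and subtype shares together, and these cannot be told apart.

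**Figure D4:**
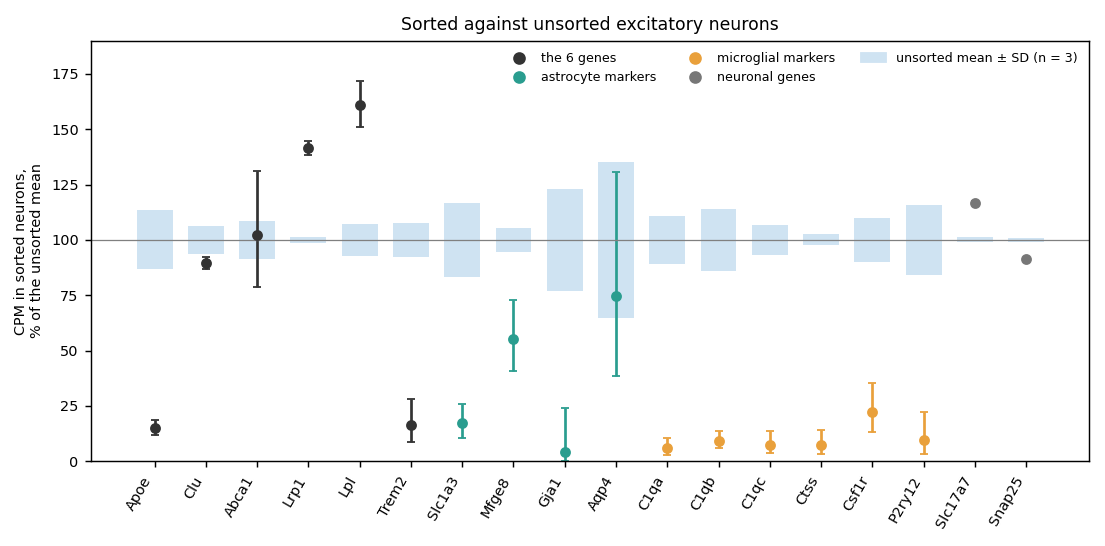
Level in sorted excitatory neurons as a percent of the mean of the 3 unsorted libraries, with its 95% Poisson interval, for the 6 genes (black), astrocyte markers (green), microglial markers (orange) and neuronal genes (grey), beside the unsorted mean ± SD (blue bars, n = 3). Apoe and Trem2 lie at 15.0% and 16.4%, near the microglial markers, while Clu lies at 89.6%, Lrp1 at 142% and Lpl at 161%.

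With each neuron thinned to 10000 UMIs, 9.54 ± 0.738% of unsorted neurons and 1.67% (Wilson interval 1.14 to 2.44%) of sorted ones had an Apoe UMI. For Trem2 the shares were 1.42 ± 0.176% and 0.257% (0.100 to 0.660%). For Clu they were 51.4 ± 1.52% and 45.6% (43.1 to 48.0%), for Lrp1 61.7 ± 0.895% and 75.0% (72.8 to 77.1%), and for Lpl 7.72 ± 0.286% and 10.3% (8.88 to 11.9%). Thinning left out 221 unsorted and 49 sorted neurons. Unthinned, an Apoe UMI was seen in 19.3 ± 2.06% of unsorted and 5.18% of sorted neurons.

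The likeness of patterns was measured as Pearson's r of log2(CPM + 1) over the 16 classes, which share their libraries, among 11661 genes that reach 20 CPM in a class. It is given as a description. Among the members, Apoe and Abca1 had r = 0.91, Abca1 and Trem2 0.73, Apoe and Trem2 0.55, and the apolipoprotein pair Apoe and Clu 0.16. The genes most like Apoe were Dera (r = 0.93), Med12 (0.93) and Fam234a (0.92). Those most like Trem2 were Ly86 (0.99), Fcrls (0.98) and Tifab (0.98), all highest in microglia. Those most like Clu were Sfxn5, AI849053 and Snx14 (0.94 each), highest in astrocytes, and those most like Abca1 were Tpp1, Cyfip1 and Dnase2a (0.94 each). Lrp1 had looser likenesses, with Pid1 (0.80), Txndc5 (0.79) and Lpcat1 (0.78). Lpl was most like Inhba (0.85), Ngb (0.83) and Ccbe1 (0.80).

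A list of 50 genes of lipid transport and handling, the members included, placed these patterns among their pathway. Of the list, 7 genes stayed under 20 CPM in every class. Astrocytes held the highest level of 8 of the others, among them Lcat, which esterifies cholesterol on particles, at 127 ± 7.83 CPM, and Srebf1, a regulator of lipid synthesis, at 159 ± 22.6 CPM. Oligodendrocyte precursors and macrophages were highest for 7 genes each and oligodendrocytes for 6. Pltp, the phospholipid transfer protein, was highest in endothelial cells at 2119 ± 60.2 CPM, with 297 CPM in macrophages as the next class. Apod, a further apolipoprotein, was highest in oligodendrocytes at 1402 ± 152 CPM. Tyrobp, the signalling partner of Trem2, had 2595 ± 212 CPM in macrophages and 2140 CPM in microglia. Gpihbp1, the anchor of Lpl on capillaries, had 0 UMIs in every class. Among receptors, Vldlr was highest in the precursors (177 ± 12.3 CPM, with 174 CPM in oligodendrocytes), Lrp8 in endothelial cells (208 ± 5.19 CPM) and Sorl1 in L5-Bcl6 neurons (350 ± 21.5 CPM).

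The design also allows contrasts within a class, made on summed counts with the library as a block, in which cells of both groups come from the same libraries. Microglia with 3 or more UMIs of the cytokine genes Tnf and Il1b (397 to 442 cells per library) were set against microglia with none (316 to 361 cells). Of 10842 genes, 1.51% were called (edgeR's quasi-likelihood test, with the adjusted p below 0.05 and 0.5 or more on the log2 scale either way), and none of the 6 members nor of the 37 listed genes tested was among them. Apoe had 410, 304 and 359 CPM with the cytokine genes and 273, 265 and 396 CPM without, so the groups overlapped. Its log2 fold change was 0.31 (SE 0.127, adjusted p = 0.441, higher in 2 of 3 libraries). Without unsorted library 3 it was 0.52 with an adjusted p of 0.0173 in the same edgeR test, and among cells of 3000 to 8000 UMIs it was 0.32, under the fold limit, with an edgeR adjusted p of 1.3e-06. Trem2 had 1694, 1617 and 1601 CPM with and 1770, 1928 and 1993 CPM without the cytokine genes, lower in 3 of 3 libraries. After TMM scaling, which shifts the median log2 fold change of all genes from -0.11 to -0.01, the Trem2 difference was -0.12 (SE 0.0851, edgeR adjusted p = 0.766). Without unsorted library 1 it was -0.22, under the fold limit, with an edgeR adjusted p of 0.00218. Abca1 and Lrp1 differed by 0.08 and 0.10 on the log2 scale after scaling (SE 0.105 and 0.0918). Without TMM factors the values were -0.01 and 0.00, so Abca1 gave no stable direction. The median of the listed genes was 0.04 and that of all genes -0.01. The cells with the cytokine genes were deeper, with medians of 4570 to 4904 against 3698 to 3795 UMIs.

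Astrocytes with a Gfap UMI, an intermediate filament gene of reactive astrocytes, numbered 16, 20 and 28 and were set against 133, 123 and 145 without. Of 6438 genes 0.00% were called by edgeR's quasi-likelihood test and 457 had an unadjusted p under 0.05, and DESeq2 also called 0 with 99 at that level. Apoe had 8919, 14010 and 14860 CPM with Gfap and 14960, 12450 and 12950 CPM without. The log2 fold changes were -0.14 for Apoe (SE 0.272), -0.15 for Clu (SE 0.240), -0.13 for Abca1 (SE 0.307) and -0.17 for Lrp1 (SE 0.282), with edgeR adjusted p-values of 0.920 to 0.947. Lpl and Trem2 did not pass the filter on low counts. For all 4 the sign turned without unsorted library 1 (0.18, 0.03, 0.15 and 0.01), so no direction is given.

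Neurons with 5 or more barcode UMIs were set against neurons with 0 in the 4 subtypes with 10 or more cells of each kind in every library. In L6-Syt6 neurons, which held 376 to 441 barcode-high and 94 to 766 barcode-zero cells per library, 1.67% of 13436 genes were called, and none of the 6 members nor of the 41 listed genes tested. Clu came nearest. It had 139, 128, 143 and 128 CPM in the barcode-high neurons (unsorted 1 to 3, then sorted) and 102, 105, 117 and 88.8 CPM in the barcode-zero ones. It was higher in 4 of 4 libraries. Its log2 fold change of 0.42 (SE 0.0601, edgeR adjusted p = 0.00694) lay under the limit of 0.5, and 6.99% of genes had an adjusted p under 0.05 at any fold. The adjusted p for Clu in edgeR was 0.0797 without unsorted library 1, 0.0664 without unsorted library 2, 0.170 without the library block and 0.102 with 1 or more barcode UMIs as the limit. Lrp1 was lower in 4 of 4 libraries with overlapping groups (log2 fold change -0.14, SE 0.0597, edgeR adjusted p = 0.179). Apoe differed by -0.12 (SE 0.0982). Barcode-high neurons had 24582 to 38604 UMIs in the median, against 21684 to 30096.5, and within 15000 to 40000 UMIs the Clu value was 0.41 with an edgeR adjusted p of 0.0178.

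In L5-S100b neurons, with 207 to 270 barcode-high and 24 to 74 barcode-zero cells per library, 2.65% of 12030 genes were called, and Lpl was 1 of the 4 members tested. Lpl is near the floor of these neurons. It had 0.848, 1.35, 1.56 and 0.965 CPM in barcode-high neurons (33 UMIs) and 4.94, 6.48, 0.967 and 5.56 CPM in barcode-zero ones (17 UMIs). It was lower in 3 of 4 libraries and the groups overlapped (log2 fold change -1.84, SE 0.547, edgeR adjusted p = 0.0385). The call was lost without unsorted library 1 (adjusted p = 0.241 in edgeR), unsorted library 2 (0.247) or the sorted library (0.108), and in DESeq2 (0.197). Among the 33 listed genes tested, Mylip, a ubiquitin ligase, rose by 0.66 (SE 0.157, edgeR adjusted p = 0.00648, higher in 4 of 4 libraries). The median of the list was -0.10, against 0.00 for all genes. The members Apoe, Clu and Lrp1 had log2 fold changes of -0.20, 0.19 and 0.14 (SE 0.301, 0.130 and 0.0845) and were not called.

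In L6-Npy neurons 0.775% of 10839 genes were called and in L2/3-Rorb neurons 0.142% of 10572, and no member and none of the 32 and 29 listed genes tested was among them. In L6-Npy, where Lpl is high, it had 54.1, 49.0, 65.6 and 91.7 CPM in barcode-high and 52.9, 61.4, 70.3 and 94.4 CPM in barcode-zero neurons (log2 fold change -0.09, SE 0.0980, edgeR adjusted p = 0.833). Lrp1 and Clu differed there by -0.11 (SE 0.0781) and 0.06 (SE 0.121). In L2/3-Rorb, Apoe had the widest error of the 3 members tested, at -0.61 (SE 0.326) from 97 and 37 UMIs.

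**Figure D5:**
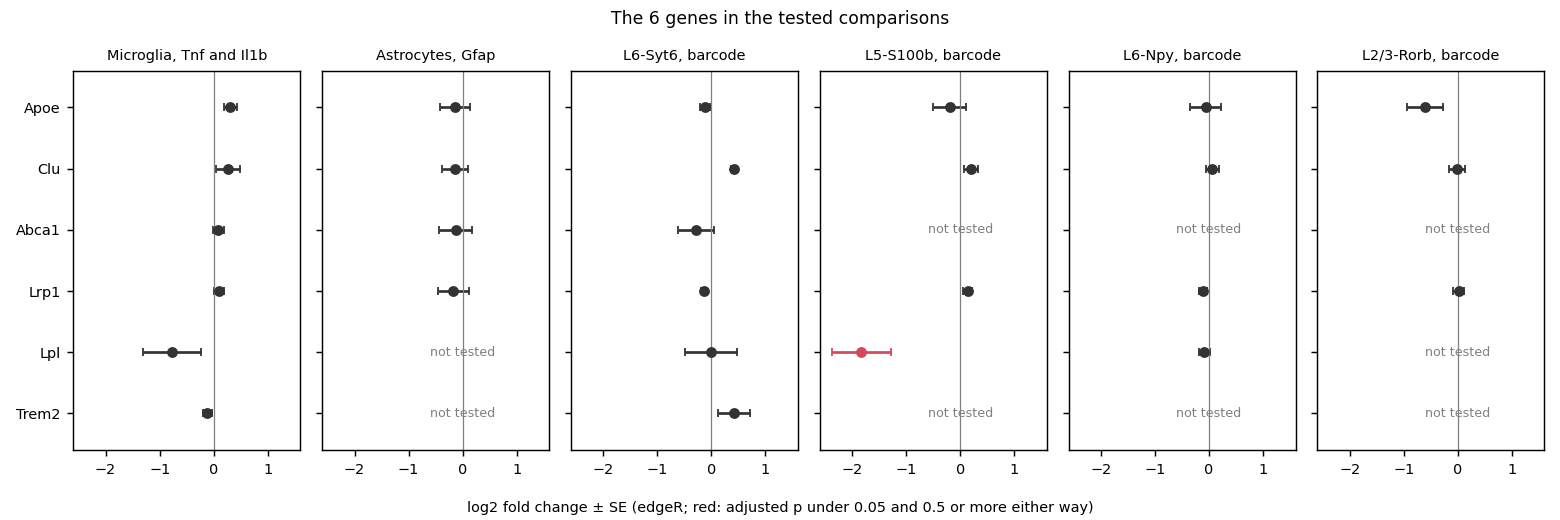
Log2 fold change ± SE of the 6 genes in the 6 tested comparisons (edgeR), with 1 panel per comparison, a red point for a called gene and "not tested" where the gene did not pass the filter on low counts. Lpl in L5-S100b neurons is the 1 red point, at -1.84, and Clu in L6-Syt6 neurons lies at 0.42.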

How the data were processed

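Single-cell RNA was measured in 4 libraries (unsorted 3, sorted 1). The authors made the deposited UMI counts with Cell Ranger 3.0.2 against mm10 with the viral barcodes added. The matrices hold raw counts of called cells, and the single viral feature (0.0319% to 0.0384% of counts) was kept out of totals and tests. The metadata give the authors' excitatory subtypes. The counting in this pipeline uses strand.

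A cell needed between 500 and 8000 genes, between 1000 and 60000 UMIs, and mitochondrial UMIs below 20%. No doublet caller was run, and cells meeting 2 or more class limits were left out. CPM was computed from summed UMIs per class and library. Summed counts went into edgeR 4.0.16 (quasi-likelihood, filterByExpr, TMM factors, library as block, at least 10 cells per group and library, Benjamini-Hochberg adjustment), leaving out the genes that set a group, and checked on simulated data. The block pairs cells of both groups from 1 library, as the labels give it. DESeq2 1.42.0 was an alternative. Intervals are 95% (Poisson exact, Wilson for shares) and cover counting error only. A count of 0 allows up to 3 counts. Gene positions came from GENCODE and promoters from RefSeq, both GRCm38.

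The members, lists, cell classes and contrasts were chosen with earlier results of these data known. Genes named beyond the members were the listed genes called in a test (up to 4 each way), the 3 genes most like each member, and listed or marker genes chosen after their values were seen. Cells of 1 library are not replicates, and the libraries are separate mice except the sorted pool. Calls of projection target were not used here. The result of 1 gene of the lipid list is not reported here.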

Additional observations from a re-analysis of the deposited data

Results flagged for a closer look

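Under the contrast of barcode-high against barcode-zero neurons, Lrp1 differed in opposite directions between L5-S100b neurons and both L6 subtypes, in every library of these 3 subtypes. It was higher in 4 of 4 libraries in L5-S100b neurons (log2 fold change 0.14, SE 0.0845) and lower in 4 of 4 in L6-Npy neurons (-0.11, SE 0.0781) and in L6-Syt6 neurons (-0.14, SE 0.0597). None of the 3 values passed the edgeR test (adjusted p = 0.437, 0.681 and 0.179), and the groups overlapped in each subtype. In the fourth subtype, L2/3-Rorb, Lrp1 was higher in 2 and lower in 2 libraries (0.01, SE 0.101). The difference between subtypes was not tested.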

How the results depend on the processing

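Of 184 alternatives for the member levels 145 stayed within 1 SD and 39 moved. A level could only stay or move here, and 3 alternatives changed a level by over 1.5 times, as given above. With cells that met several limits kept, the levels were 49309.5 CPM for Apoe in macrophages, 1727 for Clu in astrocytes, 512.5 for Abca1 in macrophages, 659.7 for Lrp1 in oligodendrocyte precursors and 1629 for Trem2 in microglia. Without cells of more than 1 Slc17a7 UMI they were 2855 for Clu, 885.8 for Lrp1 and 2045 for Trem2 in those classes. As a mean over cells they were 2857, 850.9 and 2007. The log2 ratios of sorted to unsorted neurons moved in 14 of 48 alternatives. In L6-Syt6 neurons alone they were -0.062 for Clu, 0.42 for Lrp1, 0.15 for Lpl and -3.79 for Trem2 (3 sorted UMIs). Among neurons with a barcode UMI they were -0.049 for Clu, -0.24 for Abca1, 0.47 for Lrp1 and 0.43 for Lpl. Thinned to 10000 UMIs they were -0.48 for Abca1, 0.53 for Lrp1, 0.84 for Lpl and -2.48 for Trem2, and as a mean over cells 0.53 for Lrp1 and 0.83 for Lpl.

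Counts of called genes moved by over 1.5 times in 27 of 63 alternatives. DESeq2 called 102 genes for microglia, 146 for L5-S100b, 11 for L6-Npy and 0 for L2/3-Rorb (136 at an unadjusted p under 0.05). No filter on low counts gave 21 for astrocytes and 28 for L2/3-Rorb. Without the replicate block, which pairs both groups within a library, there were 75 for L6-Syt6, 58 for L5-S100b and 0 for L6-Npy and L2/3-Rorb (406 and 287 at an unadjusted p under 0.05, edgeR). A limit of 1 barcode UMI gave 25 for L6-Syt6, 202 for L5-S100b, 27 for L6-Npy and 9 for L2/3-Rorb, and a window of depth gave 319 for microglia and 5 for astrocytes. Leaving out 1 library gave 118 to 391 for microglia (391 without unsorted library 1), 4 to 25 for astrocytes, 29 to 325 for L6-Syt6 (29, 73 and 79 without unsorted libraries 2, 1 and 3), 181 to 280 for L5-S100b (181 without unsorted library 2), 46 to 75 for L6-Npy (46 without unsorted library 3) and 3 to 35 for L2/3-Rorb (3 without unsorted library 1, 35 without unsorted library 2). Without TMM factors, an alternative added after seeing the data, the calls split into 118 higher and 40 lower for microglia (145 and 19 with them) and 83 and 166 for L6-Syt6 (107 and 118). Of 279 alternatives for members in these tests 6 lost a call (Lpl in L5-S100b, adjusted p in edgeR 0.2475 with 1 barcode UMI and 0.1175 in the window of depth, the others given above) and 1 gained one (Apoe in microglia, above). Gfap of 2 or more UMIs left under 10 cells and was not run. The Trem2 level in sorted neurons rests on 13 UMIs.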
